A study of Mus musculus with 2 samples.

Results

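The receptor tyrosine kinase pathway that ends in the ERK kinases switches on a set of genes that in turn limit or carry its output, and 10 of these genes were followed here in the melanocyte stem cells (McSCs) of early anagen and in the mature melanocytes of the hair bulb. The genes were taken by name, as *Dusp4*, *Dusp6*, *Spry1*, *Spry2*, *Spry4*, *Spred1*, *Spred2*, *Etv1*, *Etv4* and *Etv5*, from the 32285 genes of each count matrix, and all 10 had UMIs in both libraries. The cells came from Dct-rtTA; tetO-H2B-GFP mice given doxycycline, in which the *Dct* promoter drives the transactivator, so that the sorted GFP marks cells that have used this promoter. Early-anagen McSCs were taken from back skin with anagen II hair follicles, 4 days after the hair of mice aged 8 weeks was depilated. Bulb melanocytes came from anagen VI hair bulbs of mice aged 5 weeks. Each condition was 1 library that pooled the cells of 4 mice, with the version 3 droplet kit for early anagen and the version 2 kit for the bulb. The early-anagen skin was digested with trypsin, whereas the bulbs were cut out after EDTA and digested with collagenase and dispase. Kit, depth, age, depilation, dissociation and hair cycle stage therefore changed together with the condition and cannot be told apart from it, and no test across samples was possible.

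A ligand such as KIT ligand activates its receptor on melanocytes, and the signal passes through RAS, RAF and MEK to ERK. ERK signalling induces phosphatases of the DUSP family, of which DUSP6 acts on ERK in the cytoplasm and DUSP4 on MAP kinases in the nucleus. It also induces the Sprouty and SPRED proteins, which act upstream on RAS and RAF, with SPRED1 working through neurofibromin. The ETS factors ETV1, ETV4 and ETV5 form the PEA3 group and are commonly read, with the DUSP and Sprouty genes, as transcripts downstream of ERK. In melanocytes this pathway acts on proliferation and survival and on the activity of MITF, the regulator of pigmentation genes.

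A cell was used if it held at least 1 UMI of *Dct*, fewer than 3 UMIs of the keratinocyte keratins *Krt10* and *Krt14* together, under 5% mitochondrial UMIs, and more than 10000 UMIs in early anagen or more than 5000 in the bulb. This kept 2785 McSCs of early anagen (median depth 24528 UMIs) and 3734 bulb melanocytes (median depth 14286.5 UMIs). A total of 653 early-anagen cells and 27 bulb cells were left out for the 2 keratins alone. Levels are given as CPM, the UMIs of a gene per 1000000 UMIs of the library's cells. The 8 melanocyte markers summed to 24638 CPM in early anagen and 67431 in the bulb, with none at 0. *Dct* is among these markers, and *Krt10* and *Krt14* are among the epidermal markers that follow. Cells were selected on these genes, so both sums are partly set by the selection. The 6 epidermal markers summed to 26.3 and 46.8 CPM, with 0 and 2 of them at 0, the 5 fibroblast markers to 1.23 and 0.823 CPM, with 0 and 3 of them at 0, and the 5 immune markers to 17.6 and 7.50 CPM, with 0 and 3 at 0. The 5 Schwann cell markers summed to 225 and 440 CPM, with 1 at 0 in each library. Only 1 cell barcode sequence occurred in both libraries.

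The windows just upstream of the RefSeq starts of 3 genes are shown because *Spred1*, *Spry1* and *Spry2* were all lower in bulb melanocytes and each has a single start in RefSeq. *Spred2*, also lower and with a single RefSeq start, is not printed because its GENCODE start, at 19924375 on chromosome 11, lies inside the window, which held 1 GGAAGT. They are the 250 bases before the RefSeq start in GRCm38.p6, printed 5′ to 3′ on the strand of the gene, with matches to 5 searched motifs in capitals.
*Spred1*, chr2:117120821-117121070, plus strand: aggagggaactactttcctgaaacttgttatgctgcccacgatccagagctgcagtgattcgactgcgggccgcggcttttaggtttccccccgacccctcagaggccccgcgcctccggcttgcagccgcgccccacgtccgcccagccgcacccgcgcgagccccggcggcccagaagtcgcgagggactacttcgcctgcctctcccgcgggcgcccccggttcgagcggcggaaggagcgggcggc
*Spry1*, chr3:37639697-37639946, plus strand: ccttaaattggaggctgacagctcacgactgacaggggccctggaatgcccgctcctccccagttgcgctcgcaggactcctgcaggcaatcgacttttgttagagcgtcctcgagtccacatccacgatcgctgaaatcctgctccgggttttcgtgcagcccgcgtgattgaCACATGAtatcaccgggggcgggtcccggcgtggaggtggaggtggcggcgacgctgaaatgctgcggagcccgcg
*Spry2*, chr14:105896820-105897069, minus strand: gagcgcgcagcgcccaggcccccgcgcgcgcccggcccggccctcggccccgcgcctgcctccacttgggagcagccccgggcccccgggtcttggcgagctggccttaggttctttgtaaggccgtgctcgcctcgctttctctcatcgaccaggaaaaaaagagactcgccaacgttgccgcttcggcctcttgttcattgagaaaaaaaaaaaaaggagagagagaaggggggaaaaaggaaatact
The motifs were the ETS forms CCGGAA and GGAAGT, the AP-1 site TGANTCA, the M-box TCATGTG that MITF is known to bind and the E-box CACGTG, read on both strands. Of the 3 windows, that of *Spry1* held 1 M-box, on the reverse strand, and those of *Spred1* and *Spry2* held none of the 5. An entry was used for 7 of the 10 genes, with 9 windows, of which 2 held GGAAGT, 1 the M-box and none the other motifs. In all 32851 windows of this length, GGAAGT was found in 19.7%, CCGGAA in 12.0%, TGANTCA in 6.75%, CACGTG in 6.02% and TCATGTG in 3.25%. *Spred1* lies on chromosome 2 from 117121374 to 117182279, *Spry1* on chromosome 3 from 37639947 to 37644598 and *Spry2* on chromosome 14 from 105891947 to 105896819, in GENCODE vM21 of GRCm38. The *Spred1* window ends at 117121070 and so does not reach its GENCODE start, whereas those of *Spry1* and *Spry2* end next to theirs.

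The question of the first comparison was how the feedback genes stand in mature bulb melanocytes against McSCs that have just been activated. The genes did not move as 1 group. *Spred1* was 6.24-fold lower in the bulb, *Spry2*, *Spred2*, *Spry1* and *Etv4* were 2.98-, 2.77-, 2.15- and 2.08-fold lower, whereas *Etv5* was 1.83-fold and *Dusp6* 1.57-fold higher. Together the 10 genes gave 353 CPM in early-anagen McSCs and 221 CPM in bulb melanocytes. Of these sums *Spred1* alone made up 107 and 17.2 CPM, so they do not describe a drop of the whole set. Levels are UMIs summed over the cells of a library, and in 3′ UMI counting a transcript is counted once whatever its length.

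Both phosphatases were well detected in each library. *Dusp4* stood at 62.8 CPM (95% interval 61.0 to 64.6, from 4752 UMIs) in early anagen and at 50.8 CPM (49.0 to 52.7, from 2840 UMIs) in the bulb, a log2 ratio of -0.30 (-0.37 to -0.24). *Dusp6* stood at 35.7 CPM (34.4 to 37.1) in early anagen and at 56.0 CPM (54.0 to 58.0) in the bulb, a log2 ratio of 0.65 (0.57 to 0.72). In these sums *Dusp4* was above *Dusp6* in early anagen and below it in the bulb, and their intervals did not overlap in either library. The bulb order was less clear with each cell thinned to 10000 UMIs, where the intervals overlapped. There *Dusp4* was at 49.8 CPM (47.4 to 52.3) and *Dusp6* at 54.5 CPM (52.0 to 57.1). Intervals here and throughout are exact Poisson intervals, which cover counting error only. They leave out the spread among cells, and UMIs of 1 library say nothing of the spread between mice.

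The Sprouty and SPRED genes, which restrain the pathway above ERK, held the largest differences. *Spred1* was at 107 CPM (105 to 110) in early anagen, the highest level of the 10 genes, and at 17.2 CPM (16.1 to 18.3) in the bulb, a log2 ratio of -2.64 (-2.74 to -2.54). *Spred2* was at 20.9 CPM against 7.55 CPM, a log2 ratio of -1.47 (-1.63 to -1.31). *Spry2* was at 42.7 CPM against 14.3 CPM, a log2 ratio of -1.58 (-1.69 to -1.46). *Spry1* was at 8.60 CPM against 3.99 CPM, a log2 ratio of -1.11 (-1.33 to -0.89), and a gene of the opposite strand, *Gm42922*, overlaps it. *Spry4* was the least abundant of the 10, at 2.14 CPM in early anagen and 2.13 CPM in the bulb, with a log2 ratio of -0.01 (-0.36 to 0.34). Each of the 4 genes of this class above 5 CPM on average was thus at least 2-fold lower in the bulb, and the interval of *Spry4* held 0.

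The PEA3 factors were divided. *Etv4* was at 38.0 CPM (36.6 to 39.4) in early anagen and at 18.3 CPM (17.2 to 19.4) in the bulb, a log2 ratio of -1.05 (-1.16 to -0.95). *Etv5* was at 14.5 CPM (13.6 to 15.3) and 26.5 CPM (25.2 to 27.9), a log2 ratio of 0.87 (0.76 to 0.99). *Etv1* was at 20.6 CPM (19.6 to 21.7) and 24.7 CPM (23.4 to 26.0), a log2 ratio of 0.26 (0.15 to 0.36). *Etv4* was accordingly the most abundant of the 3 in early anagen and the least abundant in the bulb.

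**Figure D1:**
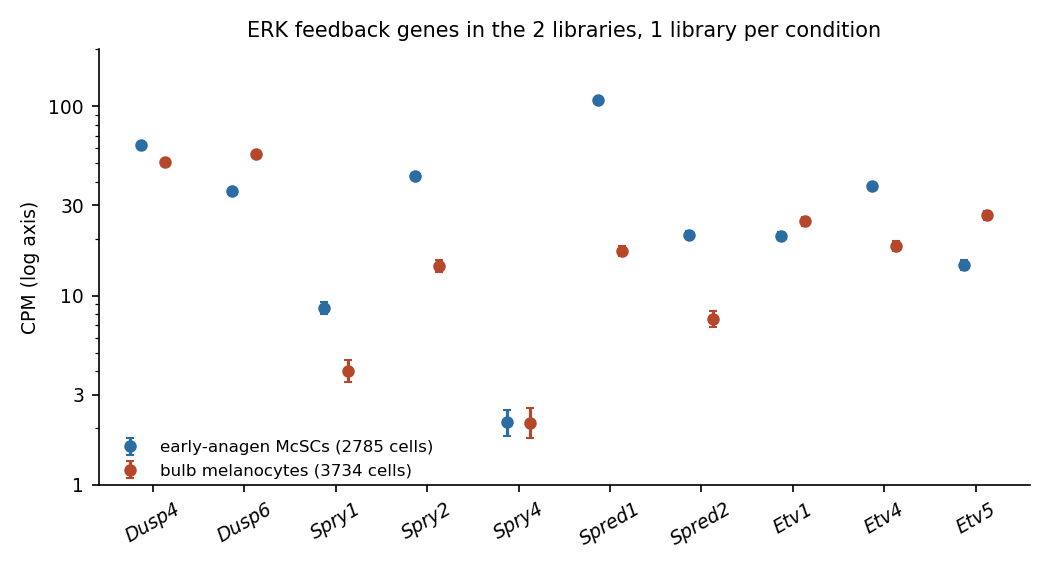
Level of each ERK feedback gene in CPM, on a log axis, in early-anagen McSCs (blue) and bulb melanocytes (red), 1 library each. Points are UMIs summed over all cells used and bars are exact 95% Poisson intervals. The widest gap is that of *Spred1*, from 107 to 17.2 CPM, *Spry4* is level near 2 CPM, and *Dusp6*, *Etv1* and *Etv5* are the 3 genes with the bulb above early anagen.

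In early anagen the order of levels ran from *Spred1* through *Dusp4*, *Spry2*, *Etv4*, *Dusp6*, *Spred2*, *Etv1*, *Etv5* and *Spry1* to *Spry4*, and the intervals of the neighbours *Etv4* and *Dusp6*, and of *Spred2* and *Etv1*, overlapped. In the bulb it ran from *Dusp6* through *Dusp4*, *Etv5*, *Etv1*, *Etv4*, *Spred1*, *Spry2*, *Spred2* and *Spry1* to *Spry4*, with overlap between *Etv5* and *Etv1* and between *Etv4* and *Spred1*. Of the 9 genes with a mean of at least 5 CPM, 0 were at least 2-fold higher in the bulb and 5 were at least 2-fold lower. Over all 8833 genes of that level, 15.4% were at least 2-fold higher and 27.9% at least 2-fold lower. The median log2 ratio was -1.05 over the 9 feedback genes of that level and -0.19 over the 8833. Over all 10 feedback genes, with *Spry4*, it was -0.68. Scaling by TMM factors, which raised every ratio by 0.31, left 3 feedback genes at least 2-fold lower (*Spry2*, *Spred1* and *Spred2*), put 1, *Etv5*, at least 2-fold higher, and brought *Dusp4* to a log2 ratio of 0.01. Immediate early and dissociation genes also differed between the libraries, 8 of 16 compared being at least 2-fold lower in the bulb and none at least 2-fold higher, with *Hspa1a* at 351 CPM in early anagen and 5.06 CPM in the bulb. The intervals of *Fos*, *Junb* and *Ier2* lay above 0, with *Fos* at 374 CPM in early anagen and 640 CPM in the bulb. The part of these genes in the feedback gene ratios was not tested across the libraries.

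The remaining genes of the pathway, in lists drawn up by role, put these levels in context. Of 13 receptor genes, 6 reached 5 CPM on average, and 5 of them were at least 2-fold lower in the bulb and none higher. *Kit*, the receptor of KIT ligand, was at 486 CPM in early anagen and 108 CPM in the bulb, a log2 ratio of -2.17 (-2.21 to -2.13). *Met*, the receptor of hepatocyte growth factor, was at 106 and 45.6 CPM, and *Erbb3*, *Igf1r* and *Fgfr1* were at 66.5, 40.0 and 16.3 CPM in early anagen and at 6.10, 4.12 and 1.06 CPM in the bulb. *Ednrb*, the endothelin receptor and a G-protein-coupled one, was the receptor with more in the bulb, at 1212 CPM against 693 CPM.

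Within the cascade 17 of 19 genes were compared, with 4 at least 2-fold lower in the bulb and 3 higher, shares near the 27.9% and 15.4% of all genes. Those lower were the adaptor *Gab1* (68.1 CPM in early anagen and 4.03 in the bulb), the RAS exchange factors *Sos1* (22.5 and 3.49) and *Sos2* (24.0 and 5.26), and the ERK-activated kinase *Rps6ka3* (95.2 and 15.3). Those higher were all kinases of the core, namely *Araf* at 31.5 CPM in early anagen and 93.3 in the bulb, *Map2k1*, which codes for MEK1, at 38.8 and 90.2, and *Mapk3*, which codes for ERK1, at 87.4 and 199. *Braf*, which codes for a RAF kinase, stood at 16.3 CPM in early anagen and 13.2 CPM in the bulb.

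Among 18 other inhibitors of the pathway, 15 were compared and 3 were at least 2-fold lower in the bulb and 1 higher, below the same shares of all genes. Those lower were the phosphatases *Dusp7* (18.01 CPM in early anagen and 3.42 in the bulb) and *Dusp16* (30.5 and 4.13) and the RAS GTPase-activating protein *Rasa1* (42.3 and 17.6). *Dusp1*, a phosphatase that is itself an immediate early gene, was the one higher, with 42.2 and 259 CPM. The median log2 ratio of this list was -0.18, beside -0.19 for all genes. Of 7 ERK-induced genes compared, 4 were at least 2-fold lower in the bulb, namely *Ccnd1* (59.2 and 18.02 CPM), *Myc* (19.8 and 6.48), *Tfap4* (8.77 and 1.25) and *Maff* (13.4 and 2.74). The last list also held 1 gene that was higher, *Phlda1*, at 757 CPM in early anagen and 1740 CPM in the bulb.

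**Figure D2:**
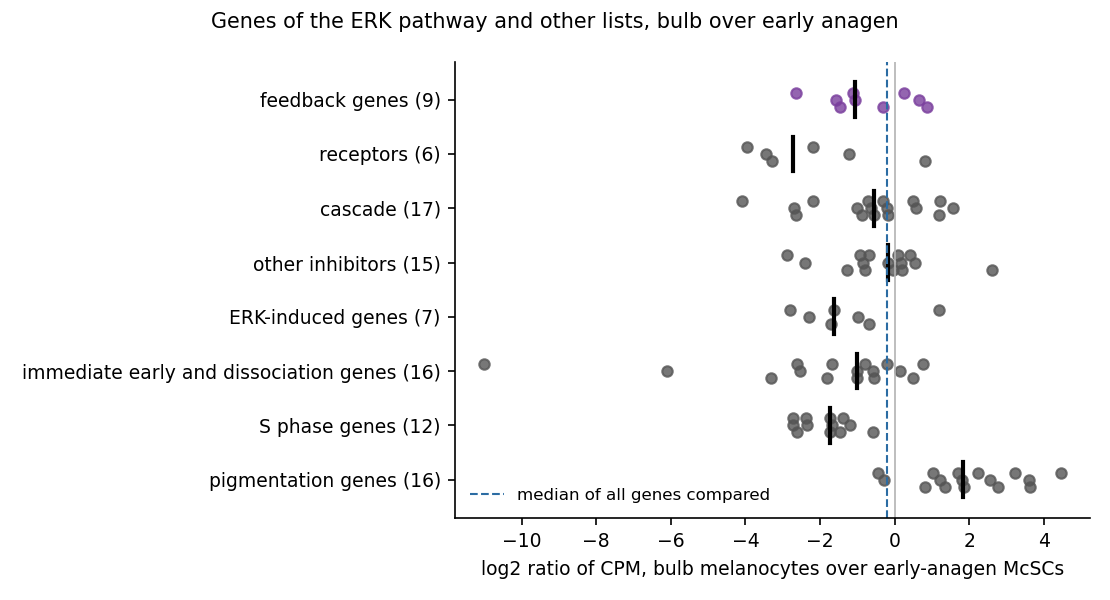
log2 ratio of CPM, bulb melanocytes over early-anagen McSCs, for each gene with a mean of at least 5 CPM in the feedback genes (purple) and in 7 other lists (grey), with the number of genes in brackets. Black bars are list medians, the dashed line is the median of all 8833 genes at -0.19, and the grey line marks 0. The feedback genes span -2.64 to 0.87, the 12 S phase genes lie below 0, and 13 of 16 pigmentation genes are at 1 or above.

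Within early anagen the cells were first divided by *Oca2*, a melanosome gene of late differentiation, with every cell thinned to the depth of 10000 UMIs, which gave 310 *Oca2*+ and 2475 *Oca2*- cells. Before thinning, 454 of the 2785 cells held an *Oca2* UMI, so *Oca2*- means none in the thinned counts. *Etv4* was lower in *Oca2*+ cells, at 19.4 CPM (14.8 to 24.9) against 35.5 CPM (33.2 to 37.9), a log2 ratio of -0.88 (-1.28 to -0.50). *Dusp4* was higher, at 76.5 CPM (67.0 to 86.8) against 58.6 CPM (55.6 to 61.7), a log2 ratio of 0.38 (0.18 to 0.58). *Spred1* was slightly lower, at 88.4 CPM against 110 CPM, a log2 ratio of -0.32 (-0.50 to -0.14). At this depth the intervals of the other 7 genes held 0, the narrowest being those of *Spry2* (-0.15, -0.43 to 0.12) and *Dusp6* (-0.05, -0.34 to 0.23). Of the 9 genes with a mean of at least 5 CPM, 0 were at least 2-fold higher and 0 at least 2-fold lower, where 1.66% and 2.11% of the 9039 genes compared were.

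*Etv4* was at 35.5 CPM in cells with no *Oca2* UMI, 23.4 CPM (16.5 to 32.3) in the 158 cells with 1 UMI and 15.1 CPM (9.59 to 22.7) in the 152 cells with 2 or more. *Dusp4* was at 58.6 CPM, 60.1 CPM (48.6 to 73.5) and 93.4 CPM (78.7 to 110) in the same cells. The interval of the cells with 2 or more *Oca2* UMIs lay above that of the cells with 1. The interval of the cells with 1 held 58.6 CPM but also allows a rise up to 73.5 CPM. The 15 pigmentation genes besides *Oca2* were all higher in *Oca2*+ cells, and the 12 S phase genes were all lower, with a median log2 ratio of -0.73. The *Etv4* ratio was -0.51 with a second random thinning and -0.57 with *Oca2*+ called from all UMIs of each cell, both within the counting interval given above. With all UMIs counted in the same cells, the ratios of *Etv5* and *Spry2* were also below 0, at -0.52 (-0.84 to -0.21) and -0.23 (-0.40 to -0.06). Neither gene fell steadily with *Oca2* UMIs in the thinned counts. *Etv5* was at 13.7 CPM with no *Oca2* UMI, 6.33 CPM with 1 and 15.1 CPM (9.59 to 22.7) with 2 or more. *Spry2* was at 44.1, 33.5 and 46.1 CPM (35.9 to 58.2) in these cells.

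Cells in cycle were taken as those with at least 1 UMI of *Mki67* or *Top2a* after thinning, which gave 1011 cycling and 1774 non-cycling cells. Before thinning, 1262 of the 2785 cells held such a UMI, so some cells called non-cycling held these transcripts. *Etv4* was higher in cycling cells, at 41.8 CPM (37.9 to 46.0) against 29.1 CPM (26.6 to 31.7), a log2 ratio of 0.52 (0.34 to 0.71). Its level stood at 29.1 CPM in cells with no UMI of *Mki67* or *Top2a*, 34.9 CPM (30.2 to 40.1) in the 567 cells with 1 to 4 and 50.7 CPM (44.3 to 57.7) in the 444 cells with 5 or more. *Spry1* had 7.22 CPM against 10.1 CPM in non-cycling cells, a log2 ratio of -0.49 (-0.90 to -0.09), but with all UMIs of each cell the ratio was -0.22 and its interval reached 0.0037. *Spred2*, *Spry2* and *Spred1* had log2 ratios of -0.29, -0.18 and -0.14, with intervals below 0 at this depth, and those of the other 5 genes held 0. The ratio of *Spred2* was -0.013 (-0.26 to 0.23) with a second random thinning and -0.21 (-0.36 to -0.07) with all UMIs. That of *Spred1* was -0.12 (-0.23 to -0.01) with the second thinning and -0.056 (-0.12 to 0.0071) with all UMIs. The ratio of *Spry2* stayed below 0 in both, at -0.27 (-0.45 to -0.10) and -0.15 (-0.25 to -0.05). With all UMIs *Etv5* was higher in cycling cells, with a ratio of 0.35 (0.18 to 0.53), and *Etv1* lower, with -0.31 (-0.46 to -0.17), while *Etv4* stayed at 0.52 (0.42 to 0.63). The immediate early and dissociation genes moved with this split, with 15 of 16 lower in cycling cells, 14 of them with intervals below 0, and a sum of 2522 CPM against 3434 CPM. Among cells at or below the median of their summed UMIs the ratio of *Etv4* was 0.53 (0.28 to 0.78) and that of *Dusp6*, -0.09 among all cells, was 0.28 (-0.04 to 0.60). In the same cells the ratio of *Spry2* was -0.06 (-0.31 to 0.20). None of the 9 genes with a mean of at least 5 CPM was 2-fold apart in either direction, beside 4.53% of 9031 genes at least 2-fold higher in cycling cells and 0.476% lower.

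Of the *Oca2*+ cells 73 of 310 were in cycle, and of the *Oca2*- cells 938 of 2475, so both splits were set beside each other. *Etv4* was at 43.6 CPM (39.5 to 48.0) in *Oca2*- cycling cells, 30.6 CPM (27.9 to 33.5) in *Oca2*- non-cycling cells, 19.2 CPM (10.5 to 32.2) in *Oca2*+ cycling cells and 19.4 CPM (14.2 to 25.9) in *Oca2*+ non-cycling cells. The lower level in *Oca2*+ cells was therefore present among non-cycling cells, with a log2 ratio of -0.66 (-1.13 to -0.22), and among cycling cells, with -1.18 (-2.07 to -0.42). The higher level in cycling cells was present among *Oca2*- cells, with 0.51 (0.32 to 0.71), while among *Oca2*+ cells the ratio was -0.02 with an interval from -1.0 to 0.87, which rests on 14 and 46 UMIs. Whether the 2 ratios differ was not tested. *Dusp4* was at 79.7 CPM (68.8 to 92.0) in *Oca2*+ non-cycling cells and 56.4 CPM (52.7 to 60.3) in *Oca2*- non-cycling cells, a log2 ratio of 0.50 (0.26 to 0.73). Among cycling cells it was at 65.8 CPM and 62.3 CPM, with a ratio of 0.08 (-0.38 to 0.50).

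**Figure D3:**
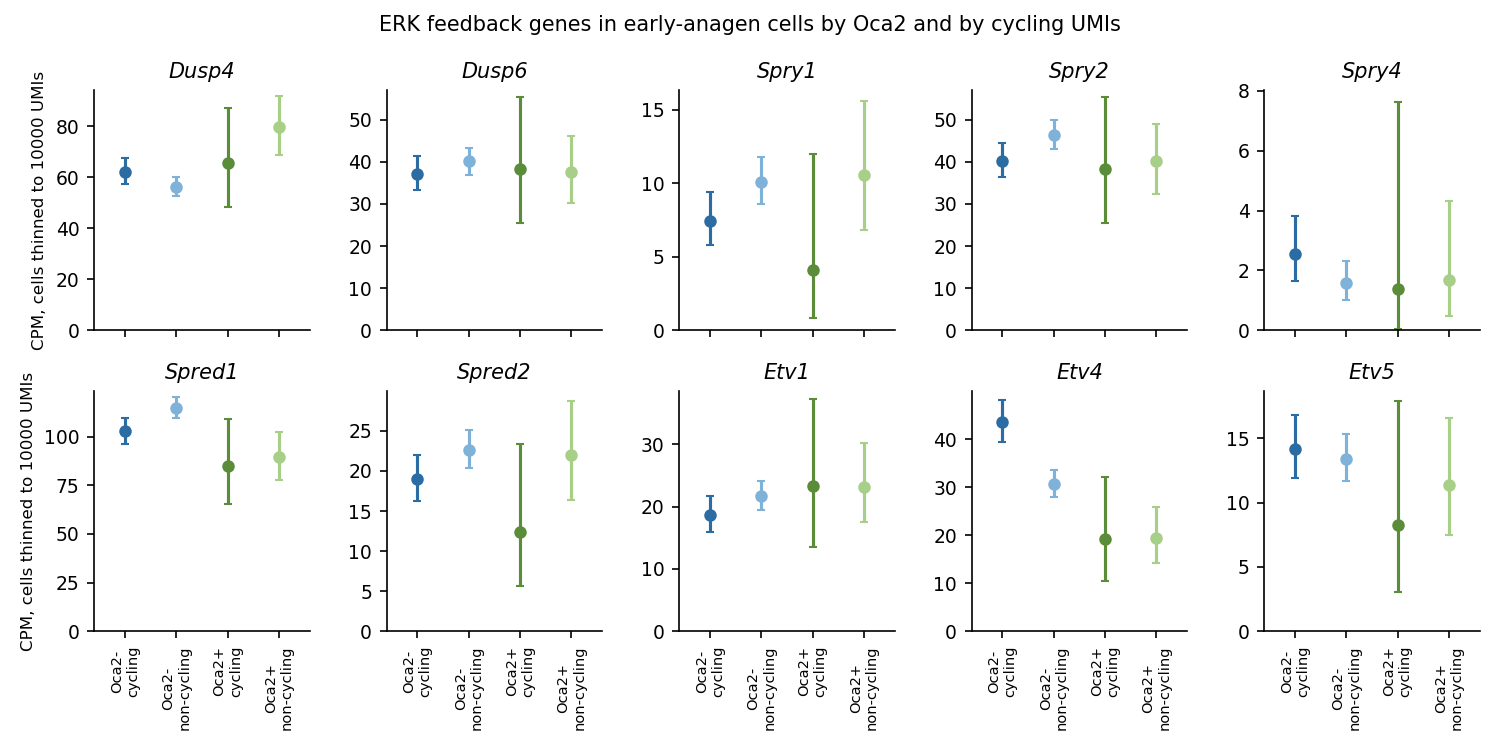
CPM of each feedback gene in early-anagen cells thinned to 10000 UMIs, by *Oca2* and by UMIs of *Mki67* or *Top2a* (cycling), with exact 95% Poisson intervals and each vertical axis starting at 0. The groups hold 938, 1537, 73 and 237 cells from left to right. *Etv4* steps down from 43.6 to 19.4 CPM, *Dusp4* is highest in *Oca2*+ non-cycling cells at 79.7 CPM, and the intervals of *Dusp6* overlap in all 4 groups.

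The *Oca2*+ cells of early anagen were then set beside the 3130 *Oca2*+ bulb cells at the same 10000 UMIs. *Etv4* was at 19.4 CPM in early anagen and 16.6 CPM in the bulb, a log2 ratio of -0.22 with an interval from -0.61 to 0.19. *Etv1* was at 23.2 and 23.7 CPM, a ratio of 0.03 (-0.32 to 0.40). *Spred1* remained far apart, at 88.4 and 17.4 CPM, a ratio of -2.35 (-2.56 to -2.13), and so did *Spry2*, at 39.7 and 13.4 CPM. *Etv5* was at 10.6 and 26.7 CPM, a ratio of 1.33 (0.82 to 1.87). *Dusp4* was at 76.5 CPM in early anagen and 50.2 CPM in the bulb, a ratio of -0.61 (-0.80 to -0.40). The summed immediate early and dissociation genes were at 1800 CPM in these bulb cells and between 2476 and 3529 CPM in the 4 early-anagen groups. The 158 bulb cells without an *Oca2* UMI had *Etv4* at 41.1 CPM (31.8 to 52.4), above the 16.6 CPM (15.2 to 18.1) of the *Oca2*+ bulb cells. Epidermal markers moved with this, at 627 CPM against 18.3 CPM, and so did cells in cycle, 15 of 158 against 55 of 3130, and their part in the *Etv4* level was not tested.

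In single cells the feedback genes were sparse. At 5000 UMIs a cell, an early-anagen McSC held UMIs of 1.40 of the 10 genes on average and a bulb melanocyte of 0.968, and 22.1% and 37.1% of cells held none. The widest gap was that of *Spred1*, detected in 40.2% (38.4 to 42.1) of early-anagen cells and 7.69% (6.85 to 8.59) of bulb cells. The shares of *Dusp6*, *Etv5* and *Etv1* were higher in the bulb, so the means do not stand for every gene. *Dusp4* was detected in 22.6% and 21.5%, *Dusp6* in 14.7% and 22.5%, *Spry2* in 18.2% and 6.72%, and *Etv4* in 14.4% and 8.03%. *Etv5* was detected in 5.67% and 11.9%, *Etv1* in 8.90% and 11.4%, *Spred2* in 10.1% and 4.12%, *Spry1* in 4.24% and 1.85%, and *Spry4* in 1.15% and 1.07%. Intervals of shares are Clopper-Pearson 95% intervals.

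These genes were not confined to the melanocytes used, since the 80 keratinocyte-like cells of the early-anagen library, thinned alike from a median of 34055 UMIs, held them too. *Dct* was detected in 26 of these 80 cells (32.5%), so this group was not free of melanocyte transcripts. *Dusp6* was detected in 22.5% (13.9 to 33.2) of these cells, *Etv4* in 15.0% (8.0 to 24.7), *Spry2* in 15.0%, *Spred2* in 15.0% and *Spred1* in 18.8% (10.9 to 29.0). *Dusp4* and *Etv1* were detected in 2.50% (0.304 to 8.74) each. The share was above that of the keratinocyte-like cells, with intervals apart, for *Spred1* and *Dusp4*, and no early-anagen share of *Dusp6*, *Spry2*, *Spred2* or *Etv4* was read as higher than this level. The bulb library held 1 such cell. As a second comparison, chosen after the data were seen, 23 bulb cells left out by the rule and low in melanocyte markers were taken. They held no UMI of *Dusp4*, *Spred1*, *Spred2*, *Etv1* or *Spry4*. *Dusp6* and *Etv4* were each detected in 3 of them, and *Etv5*, *Spry1* and *Spry2* in 1 each. A count of 0 of 23 cells allows a share of up to 13.04% by the limit of 3 counts set for a count of 0. By the Clopper-Pearson interval it allows up to 14.8%. In bulb melanocytes *Spred1* (7.69%), *Spred2* (4.12%), *Etv1* (11.4%) and *Spry4* (1.07%) lay below both limits, so their counts of 0 separate nothing. *Dusp4*, at 21.5%, lay above both.

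**Figure D4:**
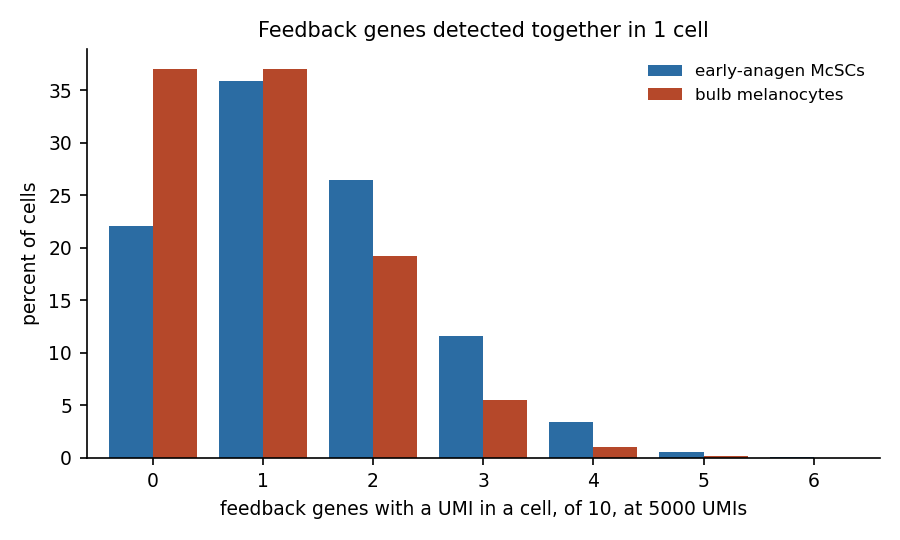
Percent of cells by how many of the 10 feedback genes had a UMI in the cell, each cell thinned to 5000 UMIs, in early-anagen McSCs (blue, 2785 cells) and bulb melanocytes (red, 3734 cells). Cells with none make up 22.1% and 37.1%, and cells with 3 genes 11.6% and 5.46%. *Spred1* alone was detected in 40.2% and 7.69% of cells.

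Cell by cell the feedback genes hardly varied together. Over the 45 pairs, Pearson's r of log-transformed UMIs at 10000 UMIs a cell lay between -0.06 and 0.08 in the 2785 early-anagen cells, with a median of 0.02, and between -0.04 and 0.08 in 3288 bulb cells, with a median of 0.01. At such low counts per gene and cell these values are limited by counting and are no finding in themselves. The variance of *Dusp6* over its mean was 1.54 in early anagen and 1.41 in the bulb, and that of *Dusp4* 1.37 and 1.20. That of *Spry2* was 1.44 and 1.51. The median over genes in 1 wide range of levels was 1.07 and 1.02. The median level of those genes was 0.168 and 0.121 UMIs a cell, against 0.389 and 0.545 for *Dusp6* and 0.606 and 0.498 for *Dusp4*. These 2 genes were therefore not compared at a like level. *Spred1*, at 1.08 UMIs a cell in early anagen, had 1.20, at percentile 85.7 in that range, and was likewise not compared at a like level.

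The genes most like the summed UMIs of the 10 feedback genes over early-anagen cells, among 7168 genes with a UMI in at least 10% of cells, were *Phlda1* (r = 0.22), *Pax3* (0.18), *Jun* (0.18), *Fos* (0.17), *Mitf* (0.16), *Egr1* (0.14), *Fosb* (0.13), *Bmyc* (0.13), *Rap2b* (0.13) and *Rapgef2* (0.12). The lowest were *Rpsa* (-0.13), *Gm10076* (-0.13) and *Rps27a* (-0.13). Over bulb cells *Fos* and *Phlda1* (0.14 each) came first, then *Rab20*, *Abhd2*, *Slc7a11*, *Sqstm1*, *Bcl2l1*, *Cebpd*, *Arf4* and *Actg1*, and the lowest were *Atp6v1g1* (-0.12), *Rps19* and *Rps14*. Among single genes *Dusp6* stood closest to the summed immediate early and dissociation genes, with r = 0.25 in early anagen and 0.20 in the bulb, against -0.09 and -0.04 for *Etv4*. *Etv4* had r = 0.19 with the summed S phase genes and -0.15 with the summed pigmentation genes in early anagen, and *Dusp4* -0.02 and 0.09. All of these cells share 1 library per condition and 1 depth, and the correlations are descriptions.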

How the data were processed

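Both droplet scRNA-seq libraries of GFP-sorted mouse skin cells, 1 per condition, were analysed. The deposited matrices hold whole UMI counts of each gene in each barcode, which the authors made with Cell Ranger 6.0.1 (per the file headers and the submitters' processing notes) on mm10, without filters on cell type. Cells were selected, UMIs summed and scaled to CPM, and cells thinned by sampling without replacement, in Python 3.11.15 with NumPy 2.4.6 and SciPy 1.17.1. Doublets were not removed. The cells used held 75718468 UMIs (early anagen) and 55883067 UMIs (bulb). With 1 library per condition no p-value was computed. The interval of a ratio treats both sums as Poisson counts and is exact at 95% for such counts. It is too narrow where the UMIs of a gene vary more among cells than Poisson counts do, as for *Dusp6*, *Spry2* and *Dusp4*. The same holds for *Etv4*, whose variance over its mean was 1.23 in early anagen and 1.20 in the bulb, and for *Spred1* in early anagen. The 2-fold counts used genes with a mean of at least 5 CPM in the 2 groups compared. TMM factors came from edgeR 4.0.16. The interval code was tested on simulated Poisson sums, which hold no extra variation among cells. The members, lists and splits were chosen with earlier results of these data known. Genes named are the 10 members, genes of the pathway lists past 2-fold together with *Kit*, *Mapk3*, *Braf* and *Map2k1*, and the 10 most and 3 least like the summed members, and others are named as chosen afterwards or as examples of a list. *Ednrb* is named as the remaining receptor. The values of 1 further gene that the rule names are not reported. Hair matrix and endothelial marker lists summed to 1.39 and 0.211 CPM in early anagen and 5.24 and 0.0358 CPM in the bulb. Keratinocyte-like cells had at least 20 UMIs of *Krt10* and *Krt14*, more than of *Dct*. Alternatives varied the cell filters, depth, scaling, thinning and the definitions of *Oca2*+ and cycling cells. Promoter windows are from RefSeq.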

Additional observations from a re-analysis of the deposited data

How the results depend on the processing

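The bulb over early-anagen ratios were recomputed under 11 alternatives, and of the 9 feedback genes whose interval was off 0, *Dusp4* alone changed sign under any of them. Its log2 ratio of -0.30 became 0.0088 with TMM factors, where every ratio rises by 0.31 by construction. With each cell thinned to 5000 UMIs the ratio of *Dusp4* was -0.10. The median over the 10 genes, -0.68, became -0.37 with TMM factors, -0.49 when centred on the median of all genes, -0.54 with each cell thinned to 5000 UMIs, and -0.84 with a total that omits mitochondrial, ribosomal protein and pigmentation genes. The count of feedback genes at least 2-fold higher, 0, became 1 with TMM factors, with centring and with thinning to 5000 UMIs, and the count lower, 5, became 3 with TMM factors and with centring. It was 4 with the mean of the CPM of each cell and with thinning to 5000 UMIs, where *Etv4* stood at -0.93 and -0.94. The median stayed at -0.68 without cells low in melanocyte markers, an alternative chosen after the data were seen.

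In the *Oca2* split (16 alternatives) and the cycling split (14), no ratio of a feedback gene reversed beyond counting error. The count of genes at least 2-fold lower in *Oca2*+ cells, 0, became 1 in cells with no UMI of *Krt10* or *Krt14*. It was 2 with *Oca2*+ called from 2 UMIs, and 1 in cycling cells alone. *Etv4* was counted each time, and the second gene was *Spry4*, which held 1 UMI in the 152 cells and lies below the 5 CPM limit. The log2 ratio of *Etv4* over *Oca2* lay between -1.23 and -0.51, and that of *Dusp4* between 0.08 and 0.67. Restricted to cells low in immediate early genes they were -0.85 and 0.44. The cycling ratio of *Etv4* lay between 0.47 and 0.86. At all UMIs of each cell the mean number of feedback genes detected was 4.29 in early anagen and 2.30 in the bulb, and the depths differed too. With each cell thinned to 5000 UMIs it was 1.40 and 0.968, and the part of depth was not tested.

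Counts of all genes past 2-fold moved with the limit on low values, from 1360 higher and 2467 lower in the bulb to 2416 and 5520 without it. No paired analysis was possible because each condition has 1 library. Depth limits *Spry4* and *Spry1* most, with 119 and 223 UMIs in the bulb.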

Other observations

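*Spry2* stood out among the feedback genes of the bulb, a comparison chosen after its values were seen. At 10000 UMIs a cell, 2952 of 3288 bulb cells held no *Spry2* UMI, 270 held 1 and 66 held 2 or more, up to 7 in 1 cell. Among 6312 genes with a UMI in at least 10% of bulb cells, those most like *Spry2* were the zinc transporter gene *Slc39a1* (r = 0.32), the beta-actin gene *Actb* (0.32), *Ttyh2* (0.30), the transcriptional repressor gene *Bhlhe41* (0.28) and *Abhd2* (0.25). The closest likeness of any other feedback gene, in either library, was that of *Dusp6* to *Fos* in early anagen (0.25). *Actb*, *Slc39a1*, *Ttyh2* and *Bhlhe41* were picked for this likeness in the same cells, so their rise with *Spry2* UMIs restates it. *Actb* was at 1843 CPM in bulb cells without a *Spry2* UMI, 3941 CPM in those with 1 and 6648 CPM in those with 2 or more. *Slc39a1* was at 66.2, 190.0 and 376 CPM in the same cells, *Ttyh2* at 67.2, 160 and 312 CPM, and *Bhlhe41* at 143, 332 and 561 CPM. The melanocyte gene *Pmel* was at 15189, 15459 and 15165 CPM, and *Spred1* at 17.3, 19.6 and 16.7 CPM. *Dct* was slightly lower with more *Spry2* UMIs, at 15902, 15739 and 15392 CPM. *Fos* and *Phlda1* also rose, so the rise was not limited to the picked genes. *Fos* was at 635 (626 to 644), 703 and 848 CPM (780 to 922). *Phlda1* was at 1709 (1694 to 1724), 1913 and 2076 CPM (1967 to 2189). The median of UMIs before thinning was 14984, 14729 and 14685, so depth before thinning was close in the 3 groups. In early anagen *Actb*, *Slc39a1* and *Ttyh2* ranked first, second and eighth of 7175 genes for likeness to *Spry2*, with r of 0.12, 0.10 and 0.08, while *Bhlhe41* ranked 1848.

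For *Etv4* in early anagen, also looked at afterwards, the most like genes were *Ranbp1* (0.21), *Ran* (0.21), *Dut* (0.19), *Pfn1* (0.18) and *Tagln2* (0.18), and the least like were *Dct* (-0.23), *Tyrp1* (-0.17) and *Myo5a* (-0.17). In the bulb, where 91 of all 3734 cells used held a UMI of *Mki67* or *Top2a*, those most like it were *Anxa1* (0.18) and *Vim* (0.14) and the least like was *Ctsb* (-0.17). *Dusp4* in early anagen was most like *Bhlhe41* (0.15) and *Mitf* (0.14), and *Spry1* most like *Fos* (0.15).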
